A study of Mus musculus with 2 samples.

Results

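The Sprr2d Krt6a Dmkn epithelium was a small set of mouse uterine epithelial cells, 82 of the 7076 cells that passed the filters in 2 droplet single-cell RNA libraries. A cell belonged to it when it carried at least 2 unique molecular identifiers (UMIs, each a counted transcript molecule) of Sprr2d, Krt6a and Dmkn together, and more of these than of Cxcl17, Clca1 and Car12 or of Cited1, Efhd1 and Ankrd37. It also had to pass an epithelial gate, with at least 3 UMIs over Epcam, Cdh1, Cldn3 and Cldn4 and none of Ptprc or Pdgfra. The gate held 1250 cells, of which the rule placed 394 with the Cxcl17 Clca1 Car12 cells and 347 with the Cited1 Efhd1 Ankrd37 cells. The members were selected on expression in these same cells, namely the summed UMIs of those marker genes, so every value below is a description, and no test was made.

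The series concerns loss of Prickle1 in the myometrium. One library came from Prickle1 f/f mice (control) and 1 from Prickle1 f/f MiC mice (cKO), each a pool of whole uteri of 3 female C57BL/6J mice aged 6 months, digested with collagenase for 5 hours. Both groups carry the floxed allele, the genotype field reads wild-type for both, and the labels say neither what MiC stands for nor the cycle stage of the mice. With 1 pooled library per group there was no replicate, so intervals are exact, at 95%, and cover counting error only. Prickle1 counts did not separate the libraries as labelled. UMIs were counted per gene, so they cannot show whether the floxed part of the allele was lost. Cells with at least 2 UMIs of the smooth muscle myosin gene Myh11 and none of Pdgfra, Ptprc or the epithelial genes held 6 Prickle1 UMIs in 138 cells (control label) and 35 in 353 cells (cKO label). Cells with at least 2 Pdgfra UMIs and no epithelial or Ptprc UMI held 29 Prickle1 UMIs (control label) and 115 (cKO label), or 4.17 and 8.70 CPM (counts scaled to a total of 1000000 UMIs), and the Myh11 cells 11.6 and 25.8 CPM. Each library is therefore called by its label. They held 45035801 and 34261441 UMIs, with medians of 4953 and 4903 UMIs per cell. They shared 6 cell barcodes, none of them a member.

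Sprr2 genes encode small proline-rich proteins that transglutaminases cross-link into the cornified envelope, the protein shell of differentiating squamous cells, and several of them are known as oestrogen-responsive genes of the mouse uterine epithelium. Krt6a is a keratin of hair follicles, oral epithelium and wounded skin, and Dmkn encodes dermokine, a secreted protein of the upper epidermis. In a stratified epithelium the basal layer carries Trp63, Krt5 and Krt14 and gives rise to the cornifying layers, whereas simple epithelia such as the lining of the uterus carry Krt8, Krt18, Krt19 and Krt7.

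Several of the genes lie side by side in the genome. In the GENCODE annotation of build mm10, Sprr2b, Sprr2d, Sprr2e and Sprr2f lie within 49.8 kb of chromosome 3, with Sprr2d at 92339140 to 92340873. Sbsn and Dmkn are neighbours on chromosome 7, separated by 7.62 kb, and Krt6b and Krt6a are neighbours on chromosome 15, separated by 9.62 kb. The 150 bases before the start of 5 genes are printed from RefSeq (GRCm38.p6, the same build). They show which letters the Sprr2 group shares and the Dmkn and Sbsn pair lacks. UMIs of all 5 genes were enriched in the members, which for Sprr2d and Dmkn follows from the rule. Capitals mark an octamer (ATTTGCAT), a TATA box (TATAAA) or an AP-1 motif (TGANTCA), each searched on both strands, and no marked motifs overlap.
Sprr2d, chr3:92338990-92339139, plus strand: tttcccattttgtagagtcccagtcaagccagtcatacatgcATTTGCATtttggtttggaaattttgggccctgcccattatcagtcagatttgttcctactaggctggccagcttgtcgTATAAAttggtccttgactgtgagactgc
Sprr2e, chr3:92351993-92352142, plus strand: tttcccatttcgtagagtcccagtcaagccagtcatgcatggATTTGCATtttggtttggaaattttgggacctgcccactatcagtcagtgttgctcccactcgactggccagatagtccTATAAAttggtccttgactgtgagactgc
Sprr2f, chr3:92365037-92365186, plus strand: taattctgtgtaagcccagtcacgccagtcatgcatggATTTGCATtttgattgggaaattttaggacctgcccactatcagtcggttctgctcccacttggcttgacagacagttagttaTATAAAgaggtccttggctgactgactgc
Dmkn, chr7:30763606-30763755, plus strand: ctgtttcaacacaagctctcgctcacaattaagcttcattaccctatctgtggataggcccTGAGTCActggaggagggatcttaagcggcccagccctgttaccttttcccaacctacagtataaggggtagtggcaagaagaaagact
Sbsn, chr7:30751321-30751470, plus strand: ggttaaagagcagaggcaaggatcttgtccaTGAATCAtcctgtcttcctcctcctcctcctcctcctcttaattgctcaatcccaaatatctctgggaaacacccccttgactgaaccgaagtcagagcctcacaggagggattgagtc

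In the 3 printed Sprr2 windows the TATA box began 29 bases before the start, and the octamer began 108 bases before it in Sprr2d and Sprr2e and 112 in Sprr2f. Of the 8 Sprr2 windows searched, 7 held both motifs, the exception being Sprr2a3. The octamer was looked for after its letters were seen to recur. It occurred in 0.998% of 32851 RefSeq windows of this length, the TATA box in 7.57% and the AP-1 motif in 4.24%. The AP-1 motif lay once in the windows of Dmkn and Sbsn and 2 times in that of Sprr1a, and in none of the Sprr2 windows. The windows of Cnfn and Il1f9, also searched, held no AP-1 motif, TATA box or octamer. The letters CCGGAA (an ETS core, 9.23% of windows) and AGGTCA (part of the oestrogen response element, 8.58%) were in none of the windows searched for these genes. A match is a stretch of letters and not a shown binding site. The windows of Sprr2d and Sprr2e were 90.7% identical over their aligned length. The last 200 bases of their transcripts, where a 3′ end library reads, were 69.8% identical, with a longest shared run of 20 bases. Across pairs of Sprr2 genes compared this way the longest shared run was 25 bases, between Sprr2f and Sprr2i, so the split of UMIs among Sprr2 genes carries some uncertainty.

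The library labelled control held 69 members, 5.95% (4.66 to 7.47) of its 1159 gated cells and 1.98% (1.54 to 2.50) of its 3490 cells. The library labelled cKO held 13, which were 14.3% (7.83 to 23.2) of 91 gated cells and 0.363% (0.193 to 0.619) of 3586 cells. With the rule applied to cells thinned to 2000 UMIs, the members were 44 and 5, or 4.72% and 7.81% of gated cells, and the cKO members were the deeper ones (medians of 27644 and 5352 UMIs). In the unthinned cells the 2 denominators gave opposite orders, because the gate itself held 33.2% of the cells labelled control and 2.54% of those labelled cKO. Fewer epithelial cells in the tissue and fewer released by the digestion cannot be told apart here. At the threshold, 11 control members and 1 cKO member had exactly 2 UMIs of the 3 genes, and 23 and 5 gated cells that joined no set had exactly 1. Another 55 gated cells of the library labelled control reached 2 UMIs but had more of Cxcl17, Clca1 and Car12, 27 had more of Cited1, Efhd1 and Ankrd37, and 7 were ties. In the library labelled cKO these counts were 0, 1 and 1.

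The 3 genes that defined the members were seldom seen together. Sprr2d ranged from 0 to 713 UMIs per control member (median 6), Krt6a from 0 to 190 (median 0) and Dmkn from 0 to 187 (median 0). They were at 0 in 18, 36 and 38 of the 69 cells. Only 1 of the 3 genes was detected in 42 control members, 2 in 8 and all 3 in 19. Detection followed depth: the cells with all 3 genes had a median of 44594 UMIs, and those with 1 gene 4475. In the library labelled cKO, 9 cells had 1 gene, 3 had 2 and 1 had all 3, the last being the deepest member at 260185 UMIs. Depth ran from 1532 to 148771 UMIs (median 5352) among members labelled control. Among those labelled cKO it ran from 1826 to 260185 (median 27644). The 5 deepest cells held 36.1% and 82.6% of the members' UMIs, so summed values lean on few cells. For that reason a second value, in which every cell counts the same, is given for the main results.

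**Figure D1:**
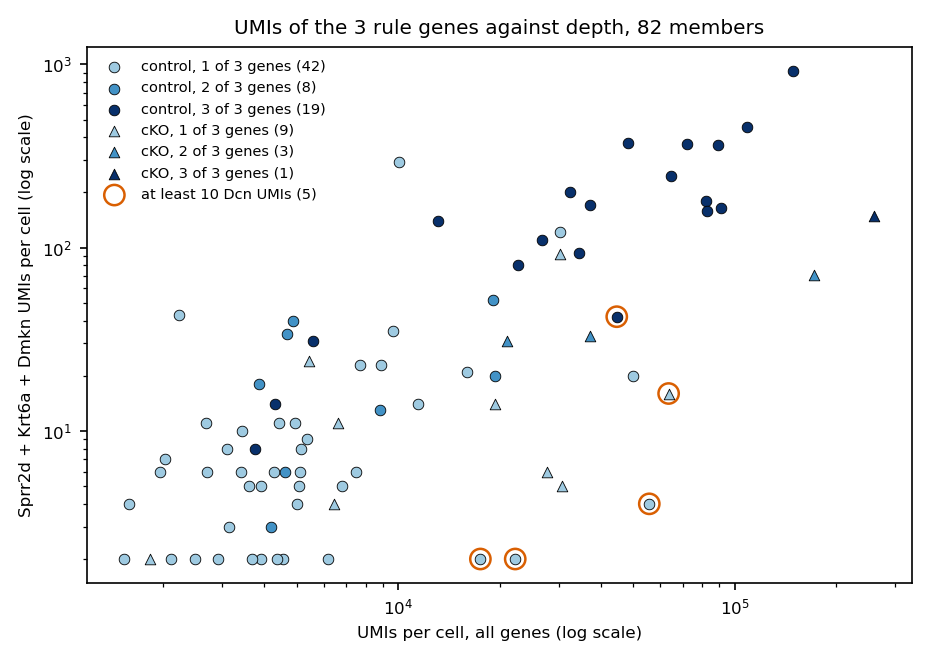
UMIs of Sprr2d, Krt6a and Dmkn per cell (vertical, log scale) against all UMIs of the cell (horizontal, log scale) for the 82 members, 69 from the library labelled control (circles) and 13 from the library labelled cKO (triangles), shaded by how many of the 3 genes were detected. The 19 control cells with all 3 genes lie mostly at high depth, and the 5 ringed cells carry at least 10 Dcn UMIs.

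Summed counts of some genes that the rule did not use also differed between cells with different defining genes, though few cells carried much of them. The 26 control members in which Sprr2d was the sole gene of the 3 held 65 Il1f6 UMIs in 13 cells, 33 Sbsn UMIs in 7 cells and 178 Clca3b UMIs in 6 cells. Among the 26, 1 cell held 124 of the Clca3b UMIs and another 24 of the Il1f6 UMIs. The 11 cells with Krt6a alone held 3 Il1f6 UMIs in 3 cells and none of Sbsn or Clca3b. Median depth was similar (4396 and 4529 UMIs), but the deepest cells had 49945 and 8910 UMIs, so the summed counts are not at equal depth. Krt8 was seen in 22 of the 26 and in all 11. The 19 cells with all 3 genes held 1305 of the 1380 Il1f6 UMIs. In the library labelled cKO the 4 cells with Krt6a alone had a median of 28899 UMIs and held 1073 Krt8 UMIs, and none of Sprr2b, Sprr2e or Sbsn. The 2 cells with Sprr2d alone held 91 Sprr2b UMIs, 34 Ltf UMIs and 5 Krt8 UMIs.

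**Figure D2:**
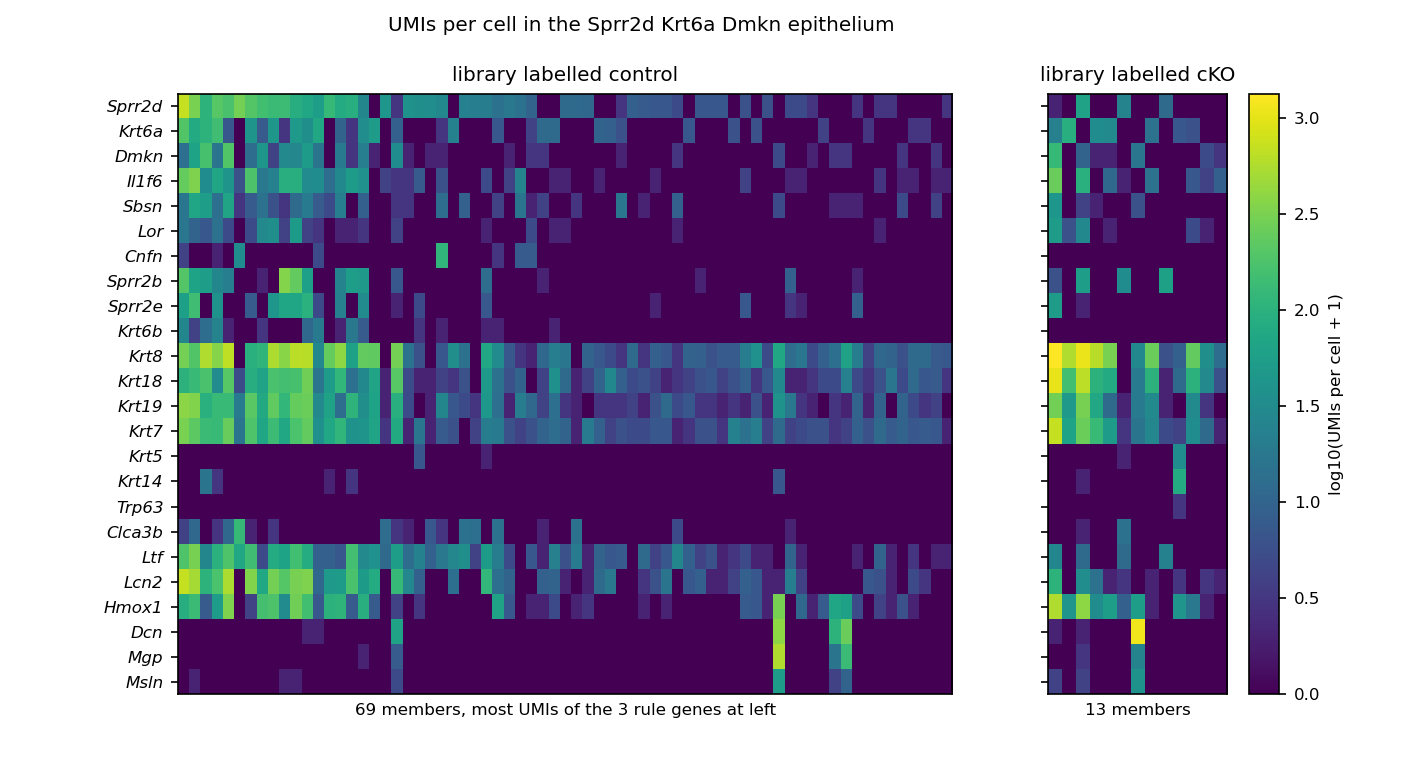
UMIs per cell, as log10 of the count plus 1, for 24 genes (rows) in each member (columns), ordered from the cell with the most UMIs of Sprr2d, Krt6a and Dmkn at the left. Krt8, Krt18, Krt19 and Krt7 are above 0 in most columns of both libraries, Krt5, Krt14 and Trp63 are at 0 in nearly all, and Dcn, Mgp and Msln are bright together in a few columns.

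The name squamous was borne out for some cornified envelope genes and not for the basal layer or the keratin backbone. Trp63, the transcription factor of basal squamous cells, had 0 UMIs in the 69 control members. This allows a share of cells with a UMI of up to about 4.35%, an approximation (3 divided by the number of cells) and not an exact bound. Krt5 had 7 UMIs in 2 cells and Krt14 had 26 in 5 cells. The simple keratins were abundant instead, with 6632 Krt8 UMIs in 64 cells, 2420 Krt18 UMIs in 67, 2944 Krt19 UMIs in 64 and 2717 Krt7 UMIs in 68. Krt8 ranged from 0 to 680 UMIs per member (median 11). Krt8 stood at 4601 CPM in the members and 4309 CPM in the other gated cells, so the members had the keratins of the rest of the uterine epithelium at about the same level. In the library labelled cKO, Krt8 had 4508 UMIs in 12 of 13 cells. There 1 cell held 82 of the 83 Krt14 UMIs, 32 of the 33 Krt5 UMIs and both Trp63 UMIs, with 8 of Krt8. Thus 1 of the 82 members carried the basal squamous genes together.

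Levels in the library labelled control were compared between the members and the 1090 other cells of the gate as the log2 ratio of summed CPM after adding 5 CPM to each. That added amount pulls the ratios of low genes toward 0. Of 7992 genes with at least 10 CPM in either class, 458 (5.73%) were at least 2-fold higher in the members and 407 (5.09%) at least 2-fold lower, and the median over all genes was 0.06. With median-of-ratios scaling the split was 373 higher and 511 lower. "Higher" and "lower" below mean past 2-fold in this comparison. A gene that reached 10 CPM only in the members had to be higher, so the counts and medians of each list are over the genes that reached 10 CPM in both classes and were not used by the rule. This restriction was chosen after seeing the data. No share over all genes is given under it, so shares quoted beside the lists come from the wider filter and are not like for like.

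Of 14 small proline-rich genes, 5 reached 10 CPM in both classes, of which 3 were higher and none lower, with a median log2 ratio of 1.18, or 1.61 with every cell counting the same. Another 2, Sprr2h and Sprr2k, reached it only in the members. Sprr2e had 616 UMIs in 19 members (427 CPM) against 13.5 CPM in the other gated cells, a log2 ratio of 4.54 (3.88 with equal weights). Sprr2b had 1157 UMIs in 18 members (803 CPM) against 59.8 CPM, a ratio of 3.64 (2.48 with equal weights). Sprr2f was the most abundant member of the family, with 14339 UMIs in 64 of 69 cells (9949 CPM), and was also abundant in the other gated cells (4387 CPM), a ratio of 1.18. Sprr2b was found in 14 of the 19 members with at least 20000 UMIs and in 4 of the 50 below, and Sprr2e in 12 and 7. Their summed levels differed as well, at 1001 and 37.1 CPM for Sprr2b and 515 and 87.6 CPM for Sprr2e. In the 50 shallower members Sprr2b was thus below the 59.8 CPM of the other gated cells. Sprr2f was present in nearly all members. Sprr1a, with 4297 UMIs in 59 members, had a ratio of 0.95, just under 2-fold, but 1.61 with equal weights, past 2-fold. The Sprr2d ratio of 5.86 follows from the rule.

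Of 24 cornified envelope genes, 13 were under 10 CPM in both classes and 4 reached it only in the members, among them Cnfn and Csta1. Dmkn was used by the rule. Of the other 6, 4 were higher and none lower (median 1.36; 1.23 with equal weights). Sbsn, the suprabasin gene next to Dmkn, had 405 UMIs in 34 members and 281 CPM against 21.1, a ratio of 3.45. Lor, which encodes loricrin, the main protein of the epidermal cornified envelope, had 190 UMIs in 22 members and a ratio of 2.52. Of these UMIs, 180 lay in 16 of the 19 members with at least 20000 UMIs (157 CPM). The 50 shallower members held 10 in 6 cells (33.7 CPM), against 18.8 CPM in the other gated cells. Sbsn stood at 276 and 300 CPM in the deeper and shallower members. Cstb, a cysteine protease inhibitor, had 1226 UMIs in 46 members and a ratio of 1.51. Cnfn (cornifelin) had a ratio of 3.92, but 112 of its 168 UMIs lay in 1 cell and only 8 cells had any. When the rule was applied to cells thinned to 2000 UMIs, the Cnfn ratio was 0.32. Lce3c, a late cornified envelope gene, had 17 UMIs in 3 members and a ratio of -0.28.

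Of 15 stratified keratins, 4 reached 10 CPM in both classes, of which 2 were higher and none lower (median 0.95; 1.08 with equal weights). Krt6a was used by the rule. Another 4 reached it only in the members. Among them was Krt6b, the neighbour and close paralogue of Krt6a, with 128 UMIs in 16 members and a ratio of 2.83, though how reads were split between these paralogues is uncertain. Krt13, a keratin of non-cornified stratified epithelium, had 127 UMIs in 17 members and a ratio of 2.24. Krt17, often found with Krt6 keratins in wounded skin, went the other way with 1 UMI in the members (0.694 CPM) and 494 in the other gated cells (30.1 CPM), a ratio of -2.63. In the library labelled cKO the 13 members held 72 Krt17 UMIs in 3 cells (106 CPM) and 0 of Krt6b. The other gated cells there held 25 Krt17 UMIs (35.6 CPM) and 1 of Krt6b, so the order for Krt17 was opposite to that in the control label. Krt13 also had the opposite order there, with 6 UMIs in 3 members (8.79 CPM) and 185 in the other gated cells (263 CPM). Of those 185, 168 lay in 4 of the 12 Cxcl17 Clca1 Car12 cells. None of 5 simple keratins passed 2-fold (median 0.09; -0.072 with equal weights, where 1 was lower). None of 6 basal squamous genes passed it (median 0.12; -0.21 with equal weights), and Krt14, Krt15 and Dsg3, a desmoglein, reached 10 CPM only in the members. None of 8 desmosome genes passed it (median 0.39).

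**Figure D3:**
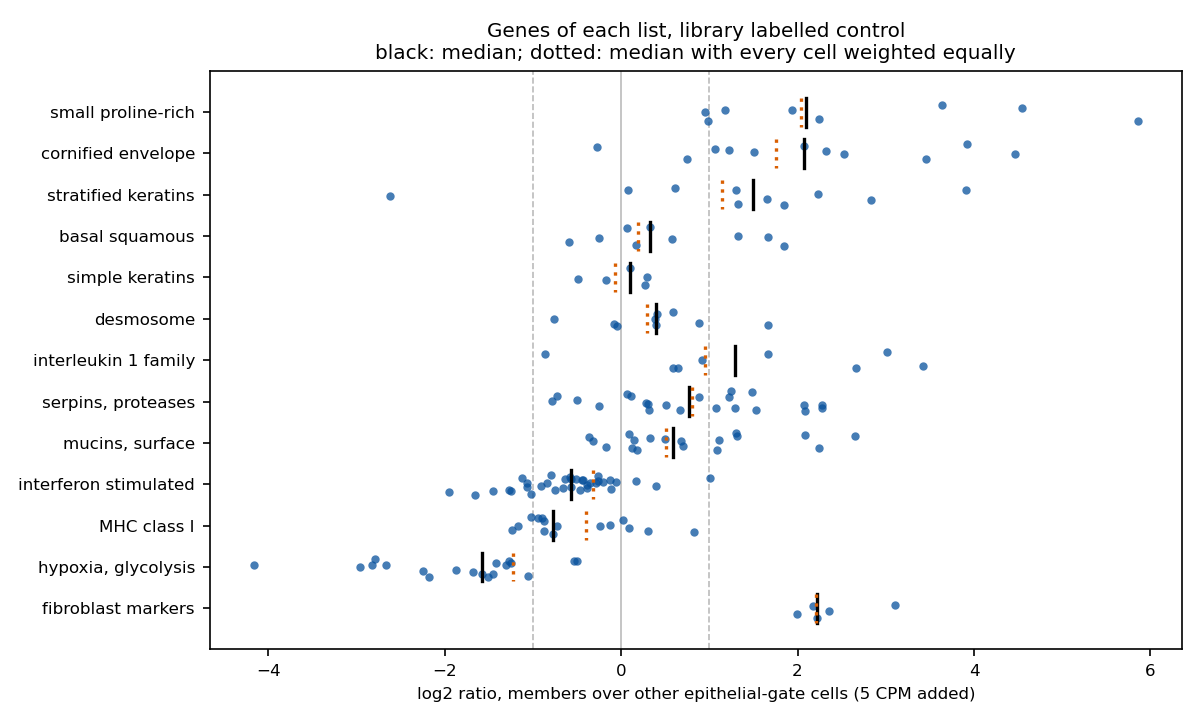
Log2 ratio of members over other epithelial-gate cells in the library labelled control (horizontal, 5 CPM added) for the tested genes of 13 lists (rows). Each point is 1 gene, black bars are medians over all points of a list, dotted bars the same with every cell counting the same, and dashed lines mark 2-fold. Rule genes and genes that reached 10 CPM in 1 class only are drawn too, which widens the lists. The small proline-rich, cornified envelope and stratified keratin lists lie to the right, simple keratins near 0, and hypoxia and glycolysis genes to the left.

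After thinning every cell to 1000 UMIs, Il1f6 was found in 27.5% of members, against 9.95% of the Cxcl17 Clca1 Car12 cells, 7.72% of the Cited1 Efhd1 Ankrd37 cells and 0.33% of Ptprc cells without epithelial UMIs. Sbsn was found in 21.7% of members, 2.88% and 0.297% of the other epithelial sets, and 0% of Ptprc cells. Before thinning, Il1f6 was found in 53.6%, 33.0%, 39.5% and 0.66% of these 4 sets, whose cells had medians of 5352, 7588, 9480 and 5932.5 UMIs. Krt8 after thinning was found in 75.4% of members and 77.2% of the Cxcl17 Clca1 Car12 cells, and their intervals overlap. The immune cells should lack these genes. They were chosen without epithelial UMIs, which also leaves out immune cells that took up epithelial free RNA. Their shares can therefore understate the background left by free RNA in the gated cells.

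**Figure D4:**
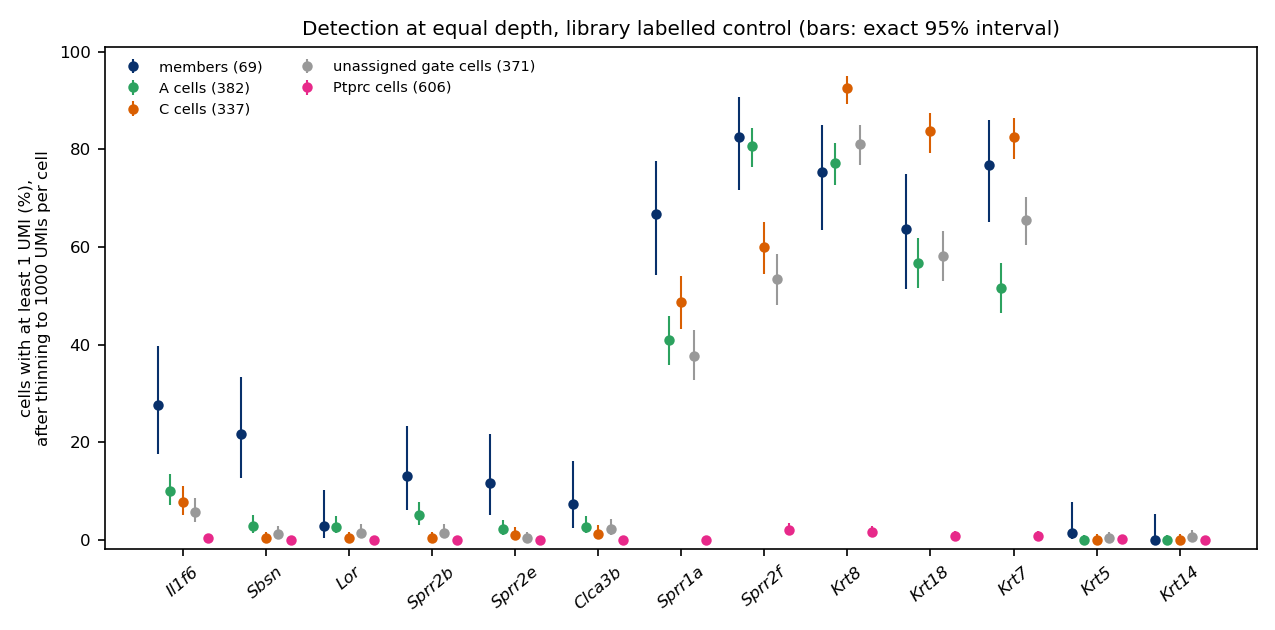
Share of cells with at least 1 UMI of a gene after thinning each cell to 1000 UMIs, for members and 4 other cell sets of the library labelled control, with the number of cells of each set in the key, where A cells are the Cxcl17 Clca1 Car12 cells and C cells the Cited1 Efhd1 Ankrd37 cells; bars are exact 95% intervals. Members lie above the other sets for Il1f6, Sbsn and Sprr2e, and among them for Krt8, Krt18 and Krt7, while Krt5 and Krt14 are near 0 in all sets.

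The interleukin 1 family includes the interleukin 36 cytokines, secreted by squamous epithelia and sensed through the receptor Il1rl2. Of 15 family genes, 3 reached 10 CPM in both classes, of which 2, Il1f6 and Il1rn, were higher. Another 5 (Il1b, Il1f9, Il33, Il1rl2 and Il18r1) reached it only in the members, so their direction was set by the filter. Il1f6, which encodes interleukin 36 alpha, ranged from 0 to 329 UMIs per control member (median 1), and 32 of 69 cells had none. It summed to 1380 UMIs and 957 CPM, against 114 CPM in the other gated cells, a ratio of 3.02, or 2.40 with equal weights. Il1f9 (interleukin 36 gamma), 1 of those 5, had 102 UMIs in 18 members (70.8 CPM against 6.96) and a ratio of 2.66. Among antagonists and receptors, Il1rn, the interleukin 1 receptor antagonist, had 113 UMIs in 22 members and a ratio of 1.67, and Il1rl2 had 15 UMIs in 8 members and a ratio of 0.59. Il1a had 142 UMIs in 25 members and a ratio of -0.87. Il1b was called higher, but 82 of its 84 UMIs lay in 1 cell, and with the thinned rule its ratio was -1.93. In the library labelled cKO, Il1f6 had 392 UMIs in 8 of 13 members, 255 of them in the deepest cell. That was 575 CPM, against 231 CPM in the other gated cells there. Il1rn had the opposite order to the control label, with 57.2 CPM in these members and 201 CPM in the other gated cells. Il1b had 0 UMIs in these members and 16 in the other gated cells.

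Serpins and epithelial proteases were higher in 6 of 18 genes and lower in none (median 0.41; 0.65 with equal weights). Plat, tissue plasminogen activator, had 571 UMIs in 32 members and a ratio of 2.07, and Plau, the urokinase gene, 162 UMIs in 30 and a ratio of 1.29. Serpinb5 (maspin) had 83 UMIs in 21 members and a ratio of 1.24. Mucins and surface proteins were higher in 4 of 14 (median 0.25; 0.42 with equal weights), among them Cd55, a complement inhibitor, with 675 UMIs in 39 members and a ratio of 2.24. Anxa8 had a ratio of 2.09, whereas the abundant mucins Muc1 (0.12) and Muc4 (-0.37) did not pass 2-fold. Luminal epithelial markers were higher in 2 of 8, Wnt7a (1.71) and Wnt7b (1.11; 0.70 with equal weights), and glandular markers in 0 of 3, with Lif at -1.86. Oestrogen-induced genes had 1 of 16 higher, Sprr2f, and 1 lower (median -0.036; 0.030 with equal weights). Over all genes with at least 10 CPM in either class, a wider filter, 5.73% were higher and 5.09% lower. The antimicrobial iron-binding gene Ltf, a classic oestrogen target, stood at 2083 UMIs in 59 members and a ratio of -0.06. Nqo1, an oxidative stress enzyme, had 234 UMIs in 19 members and a ratio of 3.20, which was 0.89 after thinning cells to 1000 UMIs.

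The lower side was led by genes of hypoxia and glycolysis. Of 15 that reached 10 CPM in both classes, 13 were lower and none higher, with a median of -1.51 (11 lower and -1.11 with equal weights). Bnip3, a mitophagy gene induced by hypoxia that reached 10 CPM only in the other cells, had 7 UMIs in 5 members (4.86 CPM) and 2816 UMIs in the other gated cells (172 CPM), a ratio of -4.17. Slc2a1, the glucose transporter GLUT1, had 119 UMIs in 37 members and a ratio of -2.67. Vegfa had 300 UMIs in 43 members and a ratio of -2.18. Slc16a3, a lactate exporter, had 11 UMIs in 9 members and a ratio of -3.47, which was -0.64 after thinning to 1000 UMIs. Ankrd37, itself on this list, was one of the genes that sent cells to the Cited1 Efhd1 Ankrd37 set, so part of this order follows from the rule, and it is left out of the count. Against the Cxcl17 Clca1 Car12 cells alone, 8 of 15 were lower and none higher (median -1.30). Over all genes with at least 10 CPM in either of these classes, a wider filter, 4% were lower. With equal weights 3 of the 15 hypoxia and glycolysis genes were lower and the median was -0.69.

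Interferon-stimulated genes were lower in 8 of 34 and higher in 1 (median -0.54), but with equal weights 1 was lower and none higher (median -0.32). Rsad2, the antiviral enzyme viperin, had 200 UMIs in 22 members and a ratio of -1.66 (-0.87 with equal weights), and Gbp2, a guanylate-binding protein, had a ratio of 1.01. Ifnb1, the interferon beta gene, had 5 UMIs in 3 members and 895 in the other gated cells, a ratio of -2.82. MHC class I genes were lower in 3 of 15 (median -0.77; -0.40 with equal weights), with B2m at 0.02. The dissociation response list, which tracks handling of live cells, was lower in 3 of 20 (median -0.32; 0.23 with equal weights), and its sign thus differed between the 2 weightings. Hba-a2, an alpha globin gene, had 0 UMIs in the members and 451 in the other gated cells. One such cell held 1565 of the 1719 UMIs of the erythroid list there.

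**Figure D5:**
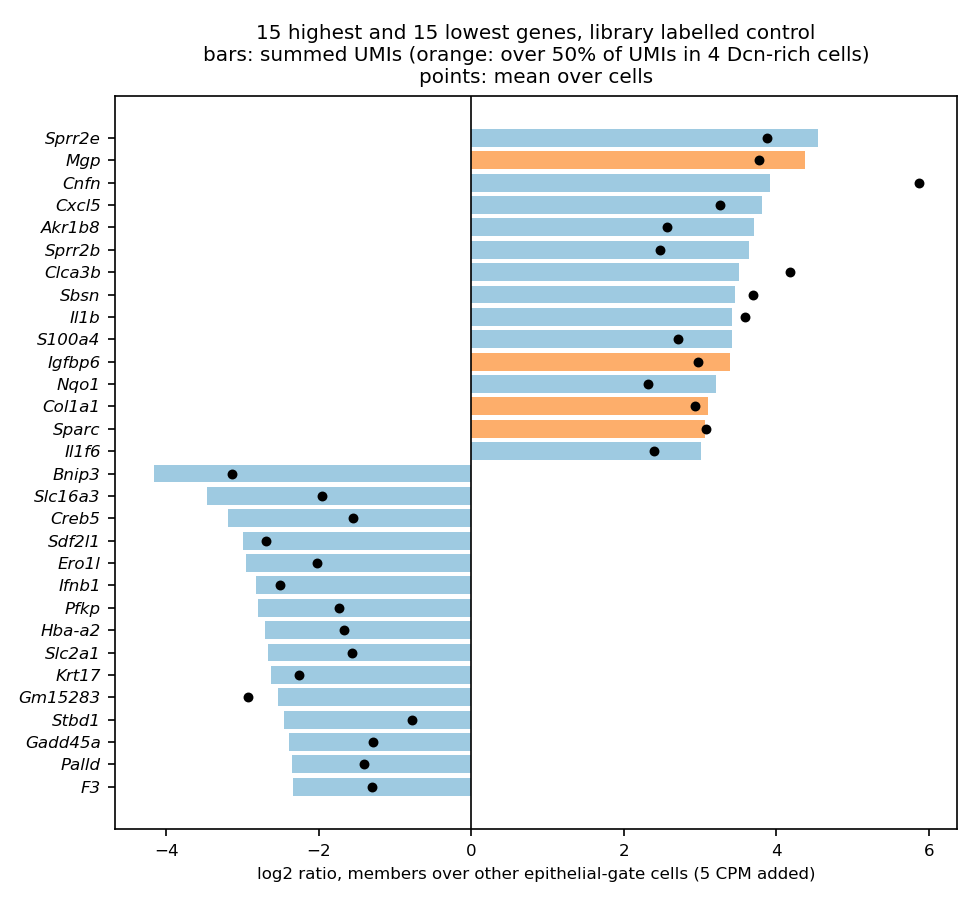
Log2 ratio of members over other epithelial-gate cells in the library labelled control (5 CPM added) for the 15 highest and 15 lowest genes outside the rule; bars are ratios of summed UMIs and points are ratios of the mean over cells. Orange bars (Mgp, Igfbp6, Col1a1 and Sparc) mark genes with over 50% of their UMIs in 4 cells rich in Dcn.

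Part of the highest genes came from 4 cells. Mgp, Igfbp6, Col1a1 and Sparc, genes of connective tissue, had ratios of 4.38, 3.39, 3.10 and 3.06, but 730 of 731, 305 of 306, 103 of 103 and 143 of 144 of their UMIs lay in the 4 control members with at least 10 UMIs of Dcn, the fibroblast proteoglycan decorin. Without those 4 cells, a choice made after seeing the data, the ratios were -2.10, -1.84, -0.83 and -1.12, and the median of the fibroblast list went from 2.22 to -2.61. The 4 cells also carried 452 Krt8 UMIs, 69 of the mesothelial gene Msln, and 40 of Dmkn, with 2 of Sprr2d and 8 of Krt6a in 1 of them. The library labelled cKO had 1 such cell, with 1161 Dcn UMIs, 40 of Msln and 16 of Dmkn. Over all control members, 7 of 8 fibroblast markers had a UMI, summing to 1146 with 0 to 511 per cell, and Pdgfra was at 0 by the rule. All 7 mesothelial markers had a UMI, summing to 144 with 0 to 86 per cell. In the other gated cells the fibroblast markers ranged from 0 to 629 UMIs per cell and the mesothelial markers from 0 to 113. Leaving the 4 cells out left 409 genes higher and 443 lower, and moved none of the medians over all tested small proline-rich, cornified envelope, stratified keratin or hypoxia genes across 0.

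The rule required Ptprc at 0, which limits immune cells. Even so, T and NK markers took 0.0017% of the members' UMIs and 0.00027% of those of the other gated cells, granulocyte and mast cell markers 0.0031% and 0.00029%, and macrophage and dendritic markers 0.0023% and 0.00084%. Of 10 T and NK markers, 3 had a UMI in the control members (25 in all, 20 in 1 cell), with Cd3e, Cd3d, Gzma and Gzmb at 0. Il7r alone held 22 of the 25, so this excess was not shared by the list. Of 10 macrophage and dendritic markers, 8 had one (33 UMIs, at most 17 in a cell), with Adgre1 and Flt3 at 0. The cell with 82 Il1b UMIs also held 225 Cxcl2, 46 of 47 Cxcl3 and 131 Cd74 UMIs, so it supplied most of the Il1b and Cxcl3 values. Endothelial markers summed to 41 UMIs, with Emcn, Cldn5, Prox1 and Lyve1 at 0, and smooth muscle markers to 79, with Actg2 at 0. Granulocyte and mast cell markers summed to 45 UMIs, of which S100a9 held 29 in 4 cells and Kit 14 in 5, with Cxcr2, Csf3r, Retnlg and Cpa3 at 0. What doublets or free RNA contribute to these values was not tested.

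A further handful of members had Sprr2d without Krt8. In the library labelled control 5 members had 0 Krt8 UMIs, at depths of 2236 to 16044 UMIs. They held 402 Sprr2d UMIs, 169 Clca3b UMIs in 5 of 5 cells and 116 Ltf UMIs in 5 of 5, with no UMI of Lcn2, Krt6a, Krt5 or Krt14. Clca3b belongs to the calcium-activated chloride channel regulator family. These 5 cells thus held 169 of the 236 Clca3b UMIs of the members. The library labelled cKO had 1 member without Krt8, and it carried 24 Sprr2d, 14 Clca3b and 11 Ltf UMIs. Of the 5 control cells, 1 had 294 Sprr2d and 124 Clca3b UMIs, together with 32 Cnfn, 22 of the 23 Csta1 and 19 of the 26 Prss27 UMIs of all control members. Csta1 and Prss27, a cystatin and a serine protease, are genes of stratified epithelium. These cells were singled out after their values were seen, and they are too few for any share to be read from them.

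Set against its nearest neighbours, the Sprr2d Krt6a Dmkn epithelium was closer in counts of called genes to the Cxcl17 Clca1 Car12 cells than to the Cited1 Efhd1 Ankrd37 cells. Against the former, 402 of 8100 genes were higher (4.96%) and 324 lower (4%). Against the latter, 930 of 7911 were higher (11.8%) and 623 lower (7.88%). No test of that difference was made. UMIs of Cxcl17, Clca1 or Car12 were present in 52 of the 69 control members, up to 344 in a cell, and of Cited1, Efhd1 or Ankrd37 in 30, up to 21. The counts of the defining genes thus overlapped between sets, and what doublets or free RNA contribute to that overlap was not tested. Against the Cxcl17 Clca1 Car12 cells the highest genes were Mgp (5.28), Cnfn (4.35), Sprr2e (3.84), Igfbp6 (3.78) and Il1b (84 UMIs against 0). The lowest were Ifnb1 (-3.24), the mitotic genes Top2a (-3.18) and Ube2c (-2.87), Bnip3 (-2.98) and Fam13a (-2.92). Against the Cited1 Efhd1 Ankrd37 cells the highest were Sprr2b (5.92), Sprr2e (5.51), Nqo1 (4.73), Akr1b8 (4.41) and Mgp (4.41). The lowest were Bnip3 (-4.87), Slc16a3 (-4.10), Sdf2l1 (-3.75), Ero1l (-3.71) and Hba-a2 (0 UMIs against 432).

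The members of the library labelled cKO were too few for a gene by gene comparison with those labelled control, since a minimum of 20 per library was set. Their counts stand side by side. Sprr2d had 98 UMIs in 4 of 13 members (144 CPM, against 2327 CPM in the control members), with 62 of them in 1 cell. Krt6a had 201 UMIs in 7 (295 CPM, against 683) and Dmkn 158 in 7, 125 of them in the deepest cell (232 CPM, against 502). Ltf had 71 UMIs in 4 members (104 CPM) and 2083 in 59 control members (1445 CPM). In the other gated cells of the 2 libraries, the interferon-stimulated list took 0.0658% of UMIs (cKO) and 0.476% (control), and in the members 0.097% and 0.302%. Prickle1 had 0 UMIs in the 69 control members and 2 in 2 of the 13 members labelled cKO, so no difference in Prickle1 was detectable here.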

How the data were processed

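Uterine cells of 2 pooled libraries were counted as UMIs per gene and barcode; the authors deposited unfiltered counts, made with Cell Ranger 4 per the file headers (6.1.1 per the submitters' processing notes) on build mm10 per the same notes. No normalization had been applied. The annotation release is not given in the sources used here.

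Cells had at least 1000 UMIs, 500 genes and at most 20% mitochondrial UMIs. Scrublet (scanpy 1.11.5) marked 3 and 1 cells automatically, so doublets must be assumed to remain. UMIs were summed per class, scaled to CPM and compared as log2 ratios after adding 5 CPM, for genes of at least 10 CPM in either class; called means at least 2-fold. The code was tested on simulated data. Named genes were the 15 highest and 15 lowest with at least 30 UMIs, 5 and 5 against each neighbouring set, and the leading genes of each list; Anxa8, Cd55, Dsg3, Gbp2, Lce3c, Muc1, Muc4, Plau, Rsad2, Serpinb5, Vegfa and the genes of single cells were chosen after their values were seen, and markers at 0 as defining ones. Intervals (Clopper-Pearson, scipy 1.17.1) cover counting error only. Members and lists were chosen with earlier results of these data known. Alternatives changed the rule, depth, doublets, pseudocount, scaling, filter and free RNA.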

Additional observations from a re-analysis of the deposited data

Results flagged for a closer look

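A signal of the defining genes also appeared in cells that the report does not use. Outside the epithelial gate, 21 of 2331 cells of the library labelled control (0.901%, 0.559 to 1.37) and 14 of 3495 cells of the library labelled cKO (0.401%, 0.219 to 0.671) had at least 2 UMIs of Sprr2d, Krt6a and Dmkn. Of the 21, 11 missed the gate only because they had fewer than 3 epithelial UMIs, 9 had a Ptprc UMI and 1 a Pdgfra UMI. For the 14 these counts were 4, 7 and 4, with 1 cell counted under both Ptprc and Pdgfra. Single cells held most of these UMIs, 325 of 530 (control label) and 146 of 185 (cKO label). Sprr2d was found in 14, Krt6a in 7 and Dmkn in 12 of the 21 cells, and in 2, 3 and 10 of the 14. Krt8 was present in 14 of the 21 and in 7 of the 14. Dcn reached 10 UMIs in 2 and 5 of them.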

How the results depend on the processing

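No paired analysis was possible because each group was 1 pooled library; for the same reason no replicate could be left out. With the rule applied to cells thinned to 2000 UMIs, which left out 678 and 697 shallower cells, members numbered 44 and 5, the share of gated cells labelled cKO was 7.81%, and Il1b was -1.93. Leaving out cells with a UMI of Cd3e, Pecam1, Dcn, Lum, Acta2 or C1qa left 6 members labelled cKO, with Mgp at -0.39, Igfbp6 at -0.095, Col1a1 at -0.16 and Sparc at -0.29. Requiring 3 UMIs of the defining genes put Col1a1 at -0.78. Against the other gated cells, 689 genes were higher with 1 CPM added, 203 higher and 189 lower with 20 CPM, and 224 and 244 at a minimum of 50 CPM. Thinning cells to 1000 UMIs gave 1913 and 1789, since 10 CPM is then less than 1 UMI per cell, and an erythroid median of 0.40. With no filter on low genes the T and NK median was -0.018 and the B and plasma cell median -0.035. The 3 alternatives chosen after seeing the data were equal weights, no Dcn-rich cells and no deepest cells. With equal weights the counts against the Cxcl17 Clca1 Car12 cells were 641 and 512, and the erythroid median was 0.20. Without the Dcn-rich cells, Mgp was -2.10, Igfbp6 -1.84, Col1a1 -0.83, Sparc -1.12 and the fibroblast median -2.61, since these cells held nearly all of those UMIs. The cause of the other shifts was not tested. Of the 30 named genes, 25 kept their sign under all 17 alternatives, but 303 of their 510 values moved by more than the counting interval or changed sign. Of 35 list medians over all tested genes, 20 kept their sign and 15 changed it in at least 1 alternative, and 8 could not be computed under all 17. Planned comparisons between members of the 2 libraries were not run, because the library labelled cKO had fewer than 20. Depth limits every statement on cells at 0, most of all among the 13 members labelled cKO.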
